A study of Equus caballus with 4 samples.

Results

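The interleukin-6 family was described from 9 gene names, namely *IL6*, *LIF* and *IL11* for the cytokines and *IL6R*, *IL6ST*, *LIFR*, *IL11RA*, *OSMR* and *CNTFR* for the receptors. A probe was taken as a member when it was no control spot and carried one of these names as its gene. This gave 9 probes of the 43603 different probes on the array, and they stood for 6 of the 9 names (6 of the 15224 different symbols of the array). *IL6*, *LIF* and *CNTFR* had 1 probe each, while *IL6ST*, *LIFR* and *OSMR* had a pair. No probe carried *IL6R*, *IL11* or *IL11RA* as its gene, but 3 probes named them in the description text. These 3 probes are given separately and are not counted among the 9.

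Cytokines of this family signal through a shared receptor chain, gp130, which is the product of *IL6ST*. IL6 first binds its own receptor IL6R, and IL11 binds IL11RA, and each pair then joins gp130. LIF signals through LIFR together with gp130, oncostatin M through OSMR or LIFR together with gp130, and the receptor of ciliary neurotrophic factor adds CNTFR to LIFR and gp130. The chains carry JAK kinases, which phosphorylate STAT proteins such as STAT3, and SOCS3 is a feedback inhibitor. In skeletal muscle, IL6 is known as a myokine released by working fibers and as a signal to satellite cells, and LIF is known to act on myoblast proliferation.

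The RNA came from equine satellite cells (ESC), the stem cells of muscle, grown from *m. semitendinosus* of healthy stallions under a year old. All cells were harvested on day 3 of differentiation. In the HMB-treated group they received 50 µM HMB (β-hydroxy-β-methylbutyrate, which the body forms from leucine) for 24 h and 3 mM H2O2 for the last 1 h of it. The control group was exposed to H2O2 in the same way but had no HMB, hence H2O2 was common to all the RNA compared. Each of the 4 arrays carried cRNA of the HMB-treated group in Cy5 (red) and of the control group in Cy3 (green). The dye was never exchanged, so treatment and dye cannot be told apart. The arrays shared 1 slide. The labels call the arrays biological replicates but give the control the same replicate number each time, and the methods took 1 culture with the best scores forward. The methods also give n = 4 for the HMB-exposed and for the control cells, so the number of separate controls is not settled. The p-values therefore measure the spread between these arrays, which need not be that between horses, and the spread between controls may be missing.

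Values are log2 ratios of HMB (Cy5) over control (Cy3) after normalization, so a positive value means more RNA with HMB. A channel was taken as detected where the image software marked it as well above background. A probe was tested if 1 channel or both were detected on all 4 arrays, which held for 24669 probes (56.6%). A probe was called at an adjusted p of 0.05 or less in limma and a fold change (FC) of 1.3 or more, and "rose" and "fell" are used only of called probes. The median ratio of all tested probes was -0.07, and the pairwise r of the arrays over these probes was 0.837 to 0.920, where probes are not independent replicates. Of 18 muscle cell markers, 17 were detected in the control channel on all arrays, and *PAX7* was not detected on any. Of the 17 tested markers, 13 fell with HMB and 0 rose (median -0.93). Among all named genes with a tested probe, 17.3% were called lower and 10.1% higher. One of the 13, *MYF6*, was detected with HMB on 0 arrays, so the control channel alone admitted it and its fall is a description. The summed signal of the muscle markers ranged from 201114 to 227400 in the control and from 83815 to 130462 with HMB. Of 9 tested fibroblast markers, 5 rose and 0 fell (median 0.42). Their summed signal ranged from 444748 to 544043 in the control and from 443206 to 689031 with HMB. Most of the control sum came from *COL1A2* (mean 251168, ratio -0.23) and *COL3A1* (mean 145886, ratio 0.06). Neither was called on its brightest probe, so the sum does not stand for the markers that rose. Leukocyte markers were detected on all arrays for 5 of 12 genes. Of these 5, *PTPRC* and *CD68* rose and 0 fell (median 0.20). *CD14* (0.20), *CD3D* (-0.04) and *MS4A1* (-0.16) were not called. Not detected on any array were 6 of the 12, *ITGAM*, *CD163* and *CD79A* among them. The summed signal of the leukocyte markers ranged from 16146 to 20648 in the control and from 19588 to 31345 with HMB. Most of it came from *PTPRC* (mean 13527 in the control and 19287 with HMB). None of 6 endothelial markers was detected on all arrays, and their summed signal was 47.9 to 88.3 in the control and 56.3 to 133 with HMB. Fewer cells of a type and less RNA per cell cannot be told apart in these bulk samples, and the part of the marker shifts in the results below was not tested.

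All member probes are 60 bases long. The sequences below are those of the probes on which the results turn, 5′ to 3′ as deposited, so that the pairs of probes to 1 receptor can be set against each other. In the first *IL6ST* probe the capitals mark a TGA stop codon at the 3′ end, up to which its reading frame is open. In the *OSMR* probes the capitals mark the 40 bases that both share, so these 2 probes are not independent measurements.
IL6: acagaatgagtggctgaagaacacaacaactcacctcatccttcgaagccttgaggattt
LIF: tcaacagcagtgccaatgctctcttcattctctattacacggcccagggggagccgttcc
IL6ST, first probe: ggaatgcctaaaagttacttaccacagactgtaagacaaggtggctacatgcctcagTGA
IL6ST, second probe: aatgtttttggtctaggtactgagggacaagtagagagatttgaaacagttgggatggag
LIFR, first probe: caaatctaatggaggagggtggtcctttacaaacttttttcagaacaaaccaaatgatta
LIFR, second probe: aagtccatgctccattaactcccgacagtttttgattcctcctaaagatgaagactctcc
OSMR, first probe: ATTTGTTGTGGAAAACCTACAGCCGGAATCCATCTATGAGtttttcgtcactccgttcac
OSMR, second probe: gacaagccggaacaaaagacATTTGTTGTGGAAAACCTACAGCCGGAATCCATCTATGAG

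The annotation in the files places the probes on build EquCab1, and it names no exon. The *IL6* probe lies at chr4:53966444-53966503 on the plus strand. The *IL6ST* probes lie at chr21:12247735-12247794 and chr21:12247660-12247719 on the plus strand, 15 bases apart. On the same chromosome, the *OSMR* probes lie at chr21:22599606-22599665 and chr21:22599626-22599685 on the minus strand, and the *LIFR* probes at chr21:22955774-22955833 and chr21:22955714-22955773 on the plus strand with 0 bases between them. The *OSMR* and *LIFR* probes are 356.028 kb apart, and in the RefSeq gene table of a later horse assembly there are 0 protein-coding genes between both genes. *CNTFR* lies on an unplaced sequence, and *LIF* has no position in the files.

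Of the 9 member probes, 4 were tested and 3 were called, on *IL6*, *IL6ST* and *OSMR*. All 3 rose with HMB and 0 fell. In comparison, 28.6% of all tested probes were called and 12.1% were called higher. The first *OSMR* probe entered the test through the HMB channel alone, so this count is a description. The other 5 probes, on *LIF*, *LIFR*, *CNTFR* and the second of *OSMR*, were not detected in 1 channel on all arrays and have values but no test. The sizes differed widely within the family, with a mean ratio of 4.32 for *IL6*, 2.18 and 1.22 for the *OSMR* probes, and 0.42 or less for every other member probe.

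**Figure D1:**
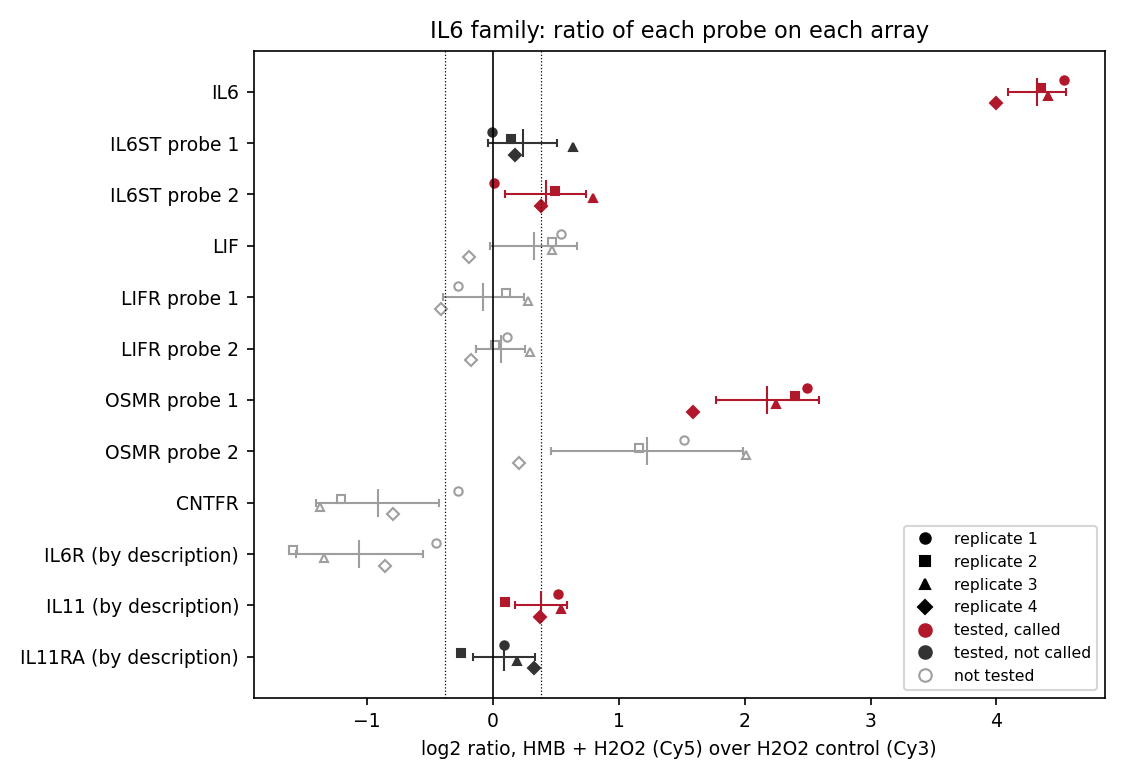
Log2 ratio of HMB over control on the x axis for each probe of the family (rows), with 1 symbol per array, a vertical tick for the mean and a horizontal bar for 1 SD (n = 4); dotted lines mark an FC of 1.3 in either direction. The 4 values of *IL6* lie between 3.99 and 4.53, those of the first *OSMR* probe between 1.59 and 2.49, and those of *LIFR* on both sides of 0.

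*IL6* was the member with the highest ratio. In the control channel its signal was 133, 193, 291 and 146 on replicates 1 to 4, and in the HMB channel it was 3093, 3933, 6170 and 2329. The channels did not overlap, since the lowest signal with HMB was above the highest of the control, and both were detected on every array. The log2 ratios were 4.53, 4.35, 4.41 and 3.99. Their mean was 4.32 ± 0.23 (SD, n = 4), an FC of 20.0 with a 95% confidence interval of 17.0 to 23.6 (adjusted p = 1.60e-06 in limma). Only 79 of the tested probes had a higher mean ratio. The control signal varied 2.18-fold and the HMB signal 2.65-fold between arrays, replicate 3 being the brightest in both channels, while the log2 ratio stayed between 3.99 and 4.53. The ratio of *IL6* stayed between 3.62 and 4.50 under all the other ways of processing, and it was called in each of them.

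**Figure D2:**
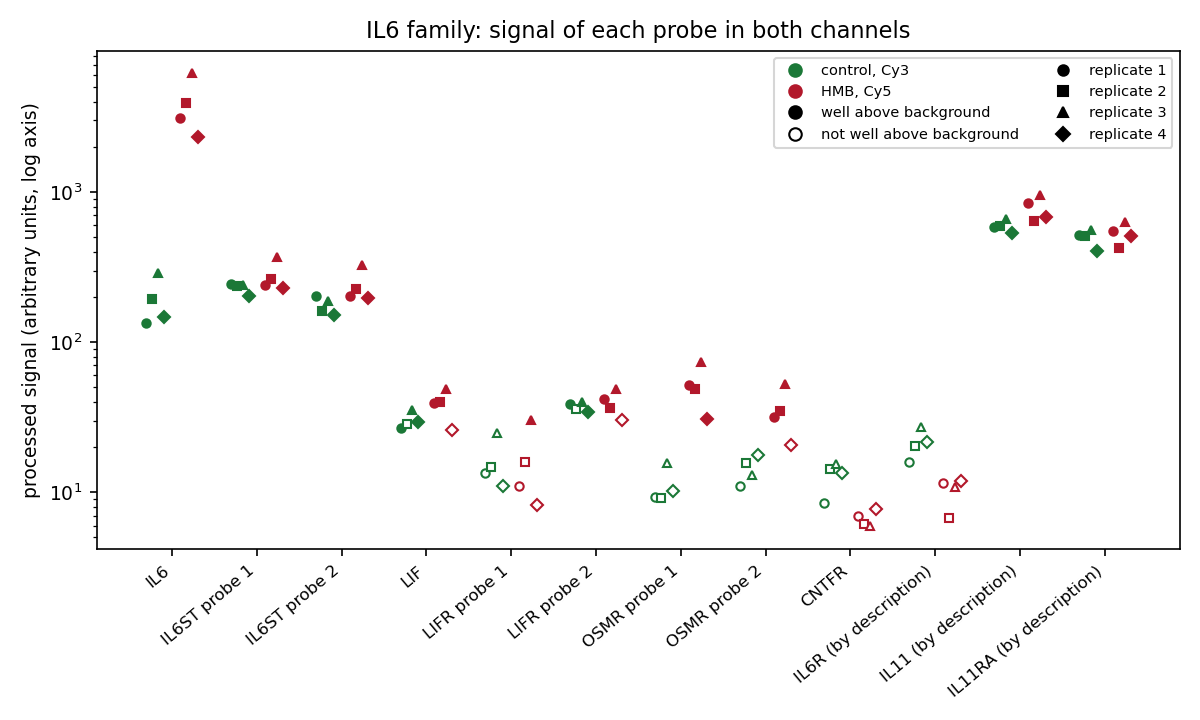
Processed signal (arbitrary units, log axis) of each probe of the family in the control channel (green) and the HMB channel (red), 1 symbol per array; open symbols were not well above background. *IL6* has filled symbols in both channels with a wide gap between them, *OSMR* has filled symbols only with HMB, and both channels of *CNTFR* and *IL6R* are open throughout.

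The other cytokines of the family were far from this change. For *LIF*, the leukemia inhibitory factor gene, the control signal was 26.98, 28.7, 35.2 and 29.5 and the HMB signal 39.3, 39.8, 48.7 and 25.8. The log2 ratios were 0.54, 0.47, 0.47 and -0.19, thus replicates 1, 2 and 3 were higher with HMB and replicate 4 was lower. The mean was 0.32 ± 0.35 (SD, n = 4). Each channel was detected on 3 of 4 arrays, the control not on replicate 2 and HMB not on replicate 4, so *LIF* was not tested. It could be tested without replicate 4, where the mean was 0.49 (adjusted p = 0.00728 in limma), but only the HMB channel admitted it there. That p therefore lends a rise of *LIF* no support. Without replicate 2, where only the control channel admitted it, the mean was 0.27 (adjusted p = 0.234). The probe described as *IL11*, a cytokine of hematopoiesis and stromal cells, was brighter and detected throughout. Its signal was 587, 597, 663 and 530 in the control and 840, 636, 961 and 686 with HMB. The ratios were 0.52, 0.09, 0.54 and 0.37, all above 0. The mean was 0.38 ± 0.21 (SD, n = 4) and the FC lay at the threshold of 1.3 (adjusted p = 0.0159 in limma). This call was lost without replicate 1, 3 or 4 (adjusted p = 0.0584, 0.0626 and 0.0517) and in 5 other ways of processing, of which scaling to the spike-in RNA gave -0.21. Array by array, the *IL6* ratio exceeded that of *LIF* by 3.88 to 4.19 and that of *IL11* by 3.62 to 4.26.

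*IL6ST*, the gene of the shared chain gp130, was detected in both channels on all arrays by both probes. With the first probe, which ends at the stop codon, the control signal was 243, 238, 240 and 202 and the HMB signal 242, 263, 372 and 228. The ratios were -0.01, 0.14, 0.63 and 0.17, with a mean of 0.24 ± 0.28 (SD, n = 4), which was not called (adjusted p = 0.126 in limma). The second probe had a control signal of 202, 160, 189 and 151 and an HMB signal of 203, 225, 328 and 196. Its ratios were 0.01, 0.49, 0.79 and 0.38, and the mean of 0.42 ± 0.32 (SD, n = 4), or an FC of 1.34 (95% confidence interval 1.08 to 1.65), was called (adjusted p = 0.0344). On both probes replicate 1 lay next to 0 and replicate 3 was the highest. The second probe exceeded the first by 0.02 to 0.35 on each array. The call on *IL6ST* did not hold without replicate 2, 3 or 4 (adjusted p = 0.105, 0.102 and 0.0822) or for the mean of both probes (0.33, adjusted p = 0.0559). After normexp with loess the second probe was at 0.17 and without background correction at 0.32, neither of them called.

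*OSMR*, which encodes the oncostatin M receptor, was detected with HMB but not in the control. With the first probe the control signal was 9.25, 9.20, 15.6 and 10.2 and the HMB signal 52.0, 48.6, 73.7 and 30.8. The HMB channel was detected on all 4 arrays and the control channel on 0. The log2 ratios were 2.49, 2.40, 2.24 and 1.59, with a mean of 2.18 ± 0.41 (SD, n = 4). The adjusted p was 1.37e-04 in limma, but the probe was admitted to the test by its HMB channel alone, so this p and the call describe the probe and lend the rise no support. Since the control was at background, the change is given as a bound, with *OSMR* 2.35-fold higher with HMB than a floor for the control. For this bound the signals were first put on a common scale between the arrays (Aquantile normalization). The control was then set on each array to the lowest signal that was well above background there, if its own was lower. An undetected spot can be brighter than this floor. On replicate 2 the undetected control of the second *LIFR* probe was at 36.0, against 22.3 for the floor before that scaling. The bound is therefore no strict lower limit. With the second probe the control signal was 11.1, 15.6, 13.1 and 17.8 and the HMB signal 31.7, 34.9, 53.0 and 20.5, detected with HMB on 3 arrays and in the control on 0. The ratios were 1.51, 1.16, 2.01 and 0.20, all above 0, with a mean of 1.22 ± 0.76 (SD, n = 4), which was not tested. The bound computed from it was 1.59-fold, with HMB detected on 3 of 4 arrays. On each array the first probe was above the second, by 0.23 to 1.38.

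The size of the *OSMR* ratio depended on the background correction. Before subtraction, the spot of the first probe had a mean brightness of 87.8, 92.9, 94.8 and 112 in Cy3 and of 97.3, 101, 111 and 95.6 in Cy5. Negative control spots had a median of 67.3 to 84.2 in Cy3 and of 46.6 to 52.0 in Cy5. With no background correction and loess the mean ratio of the first probe was 0.59 (adjusted p = 2.82e-04), and after normexp, which adds an offset of 50 to each channel, it was 0.40 (adjusted p = 0.0261). Both values lie under the bound given above, so the bound applies to the deposited background subtraction only. With both channels required above background the probe was not tested.

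*LIFR*, the receptor chain shared by LIF, oncostatin M and ciliary neurotrophic factor, is the neighbor of *OSMR* on chromosome 21. The second probe, with a control signal of 38.7, 36.0, 39.7 and 34.5 and an HMB signal of 41.7, 36.4, 48.7 and 30.5, was detected on 3 arrays in each channel. Its ratios were 0.11, 0.01, 0.29 and -0.18 with a mean of 0.06 ± 0.20 (SD, n = 4). The first probe was detected with HMB on 1 array and in the control on 0, and its ratios were -0.28, 0.11, 0.28 and -0.41. Neither probe was tested, and the channels overlapped in both.

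The ligand-binding chains that do not signal by themselves were at background or could not be assigned with certainty. *CNTFR* was not detected in any channel, with a control signal between 8.46 and 15.5 and an HMB signal between 5.96 and 7.73. Its ratios were -0.28, -1.21, -1.38 and -0.80. With HMB all 4 of these signals were surrogates that the image software puts in place of a value at background, so no FC is given. The probe described as *IL6R*, the receptor of IL6, was not detected in any channel either, with a control signal between 15.9 and 27.4, an HMB signal between 6.70 and 11.9 and ratios of -0.46, -1.59, -1.34 and -0.86. Without the filter on dim probes, both passed the thresholds as lower (adjusted p = 0.0285 for *CNTFR* and 0.0207 for *IL6R*), although no array had measured either. The probe whose description names *IL11RA* carries the symbol *GALT* in the files, the gene of galactose-1-phosphate uridylyltransferase, and *GALT* and *IL11RA* are direct neighbors in the RefSeq gene table. Its control signal was 520, 507, 558 and 405 and its HMB signal 552, 425, 635 and 507. The ratios were 0.09, -0.25, 0.19 and 0.32, the mean was 0.09 ± 0.25 (SD, n = 4), and it was not called (adjusted p = 0.519 in limma; 95% confidence interval -0.16 to 0.33 on the log2 scale). Which of both genes it measured was not settled by the files.

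The arrays did not rank alike over the family. Replicate 4 had the lowest ratio on 6 of the 9 member probes (*IL6*, *LIF* and both probes of *LIFR* and of *OSMR*), compared with 25.5% of all tested probes. The paired probes measure the same transcript and are not independent. Replicate 3 had the highest ratio on 5 of the 9, compared with 30.0% of all tested probes. In both counts the 9 include 5 probes that were not tested, so the members and the tested probes are unlike sets. On replicate 4 the lowest HMB signal that was well above background was 28.1, and on the other arrays it was 22.4 to 23.9. Left out in turn, no replicate ended the call on *IL6* (mean 4.25 to 4.43), and the mean of the first *OSMR* probe was 2.08 to 2.38.

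**Figure D3:**
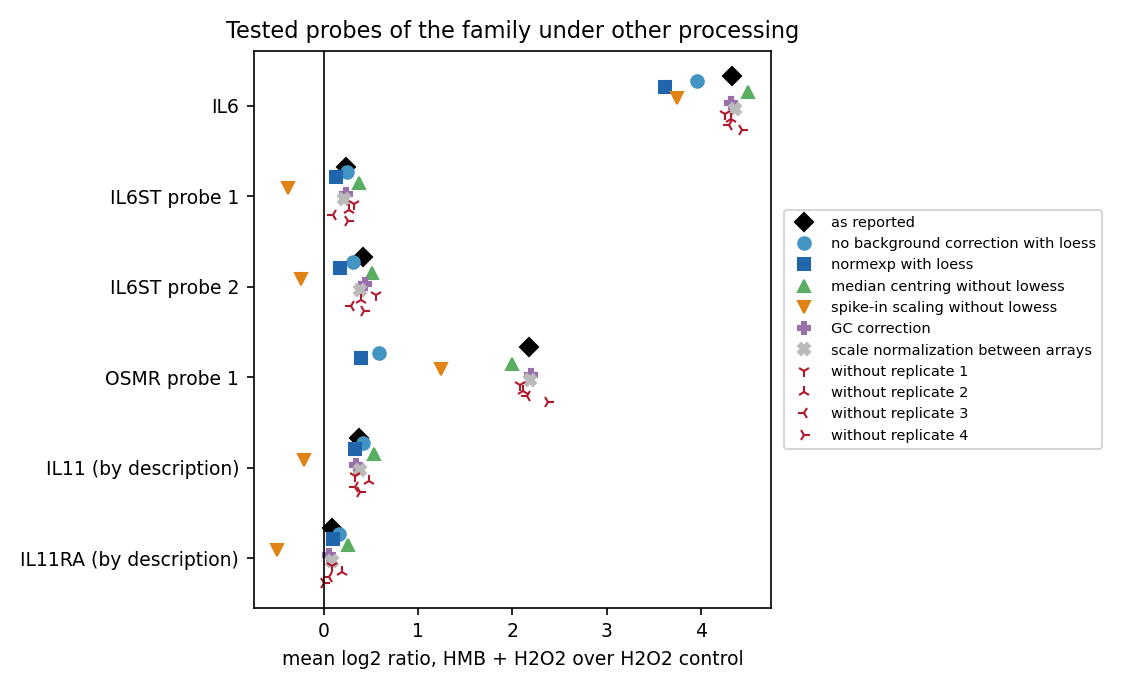
Mean log2 ratio of HMB over control on the x axis for the 4 tested member probes and the 2 tested probes named by description (rows), as reported (black diamond) and under 10 other ways of processing (symbols in the key). *IL6* stays above 3.6 in all of them, the first *OSMR* probe falls from 2.18 to 0.40 with normexp, and *IL6ST*, *IL11* and *IL11RA* cross 0 with spike-in scaling.

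Likeness to *IL6* was measured by the Euclidean distance between the 4 log2 ratios, over 8386 other genes with a tested probe. The nearest was *CCL2* (distance 0.23), with ratios of 4.38, 4.42, 4.46 and 3.85. It was followed by *MX1* (0.36), *IFIT3* (0.42), *TLR3* (0.47) and *HERC5* (0.57), whose mean ratios lay between 4.17 and 4.53. For *LIF*, compared with 8387 genes, the nearest were *MYOD1* (0.18), *SNAI1* (0.19), *SPRYD3* (0.21), *ID2* (0.26) and *IPO9* (0.26). *MYOD1* had ratios of 0.42, 0.46, 0.46 and -0.06, and it was not called since its FC was 1.25. With 4 arrays such a distance describes these arrays only. *LIF* was not tested, and on replicates 2 and 4 only 1 of its channels was detected, so its pattern is uncertain.

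Further genes of the pathway were counted by the brightest tested probe of each, on lists written from general knowledge. Among all 8387 named genes with a tested probe, 10.1% were called higher and 17.3% lower, and the median ratio was -0.09. Of 9 other ligands and receptors of the family, 4 were tested, 1 rose and 0 fell (median 0.21). *CNTF*, ciliary neurotrophic factor, had a mean ratio of 0.38 ± 0.09 (SD, n = 4; adjusted p = 0.00479), again at the FC threshold, and its call was lost in 7 of the alternatives. *OSM*, the ligand of OSMR, was detected and had a ratio of -0.19 ± 0.25 (SD, n = 4; adjusted p = 0.179), with values of -0.24, -0.49, -0.13 and 0.11. *CLCF1*, which encodes a further ligand of CNTFR, had 0.16 ± 0.15 (SD, n = 4) and was not called. The genes of cardiotrophin 1 (*CTF1*), *IL27*, *EBI3*, *IL31* and *IL31RA* were not tested.

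Among the transducers downstream of gp130, 13 of 17 genes were tested, 1 rose and 0 fell (median 0.03). *JAK2* had ratios of 2.31, 2.61, 2.48 and 2.05, with a mean of 2.36 ± 0.24 (SD, n = 4; adjusted p = 1.76e-05 in limma). It had 2 tested probes and was called on both. In contrast, *JAK1* was at 0.03 ± 0.14 and was not called (adjusted p = 0.792). *STAT3* had no probe under its name and was not analysed here. Of 12 negative regulators and genes of receptor shedding, 8 were tested, 0 rose and 1 fell (median 0.04). *PIAS3*, which encodes an inhibitor of STAT3, fell by 0.43 on the log2 scale with an SD of 0.12 (n = 4; adjusted p = 0.00391), on 1 of its 2 probes, and its call was lost in 5 of the alternatives. *ADAM17*, the protease that releases soluble IL6R, was at -0.15 ± 0.19 and was not called (adjusted p = 0.205). *SOCS3* was detected on all arrays in neither channel and was not tested.

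Known targets of STAT3 were tested for 15 of 23 genes, of which 8 rose and 0 fell (median 0.45). The largest rises were those of *SAA1*, an acute-phase protein (4.01 ± 0.25, n = 4; adjusted p = 2.13e-06), *ICAM1*, an adhesion molecule (2.08 ± 0.31, n = 4; adjusted p = 6.69e-05), *IRF1*, an interferon-responsive transcription factor (1.74 ± 0.11, n = 4; adjusted p = 1.23e-05), and *BCL2L1*, an inhibitor of apoptosis (1.02 ± 0.75, n = 4; adjusted p = 0.0215). The probes of *SAA1* may also bind RNA of near-identical serum amyloid A genes. *SAA1*, *ICAM1* and *IRF1* are also known targets of NF-kB or interferon signaling. *BCL2L1* ranged from 0.32 on replicate 1 to 2.06 on replicate 3, and its call was lost in 7 of the alternatives. It was admitted to the test by 1 channel alone, so its place among the 8 is a description.

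Among genes that control *IL6* transcription or the decay of its mRNA, 13 of 18 were tested, 5 rose and 0 fell (median 0.21). The IκB protein gene *NFKBIZ*, whose product is needed for transcription of *IL6* in macrophages, had ratios of 3.12, 4.03, 3.94 and 3.46 with a mean of 3.64 ± 0.42 (SD, n = 4; adjusted p = 1.81e-05 in limma). *NFKBIA*, the feedback inhibitor of NF-kB, rose by 2.04 ± 0.21 (SD, n = 4; adjusted p = 2.36e-05) and was called on 6 of 6 probes. *ARID5A*, which protects *IL6* mRNA from decay, rose by 1.07 ± 0.21 (SD, n = 4; adjusted p = 3.19e-04), but its call was lost with normexp (0.34, adjusted p = 0.0300) and with spike-in scaling (0.34, adjusted p = 0.0647). *IRF1*, which stands on this list too, is given above. *ZC3H12A*, the gene of the RNase regnase-1 that degrades *IL6* mRNA, was not tested, and *CEBPB*, *CEBPD* and *ZFP36* were not analysed here. Of the called genes on all these lists, *SAA1*, *NFKBIA*, *JAK2*, *NFKBIZ*, *IRF1* and *ICAM1* kept their calls in every alternative that tested them. The ratios of *NFKBIZ*, *ICAM1*, *IRF1* and *JAK2* were smaller with other background corrections. With normexp *NFKBIZ* was at 1.67, *ICAM1* at 0.82, *IRF1* at 0.83 and *JAK2* at 1.68. With loess and no background correction they were at 2.20, 1.12, 1.13 and 2.01. *SAA1* (4.04 and 4.06) and *NFKBIA* (1.97 and 2.07) moved little in both settings. Neither *NFKBIZ* nor *BCL2L1* was tested with both channels required above background, so 1 channel alone had admitted each of them. Their p-values and calls only describe them, also within the counts of the lists, and are no sign of stability. The counts of falls on the lists depended on the scaling, since with spike-in scaling 6 genes of these lists were called higher and 29 lower, against 14 and 1 as reported. *OSM* (-0.93), *ADAM17* (-0.77), *CLCF1* (-0.59) and *JAK1* (-0.55) were among those called lower then, when the median of all tested probes moved by -0.60.

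**Figure D4:**
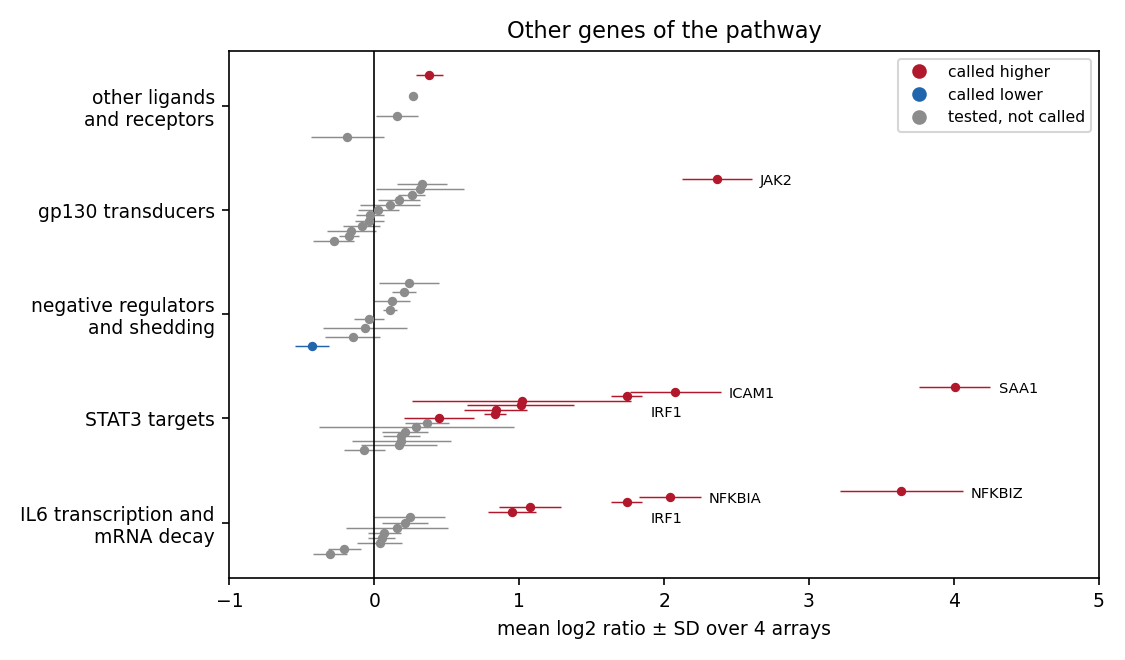
Mean log2 ratio of HMB over control (x axis, bars 1 SD over 4 arrays) for the tested genes of 5 lists of the pathway (rows, genes ordered by their mean); red was called higher, blue lower and gray not called. *SAA1* (4.01), *NFKBIZ* (3.64), *JAK2* (2.36), *ICAM1* (2.08) and *NFKBIA* (2.04) stand apart, and most transducers and negative regulators lie near 0.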

How the data were processed

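The 4 two-color Agilent horse arrays were compared with each array as 1 replicate. The intensity values in the deposited files are the brightness of each spot per channel, from which the authors' Feature Extraction software subtracted the background, followed by a linear and lowess step that puts the channels of an array on a common scale. The deposited log10 values are ratios of the normalized Cy5 over the normalized Cy3 signal. The files name version 10.10.1.1 of the software, and the probe annotation follows EquCab1. The log2 values used here are the deposited log10 ratios after a change of base. Such normalization removes a shift shared by most transcripts, and dim signals replaced by surrogates make ratios uncertain. For arrays, the number of them (4) limits the precision.

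Controls and spots that the software marked (non-uniform, population outlier) were left out, and spots of 1 probe were averaged. Ratios were tested against 0 in R 4.3.3 with limma 3.58.1 (intercept, empirical Bayes, Benjamini-Hochberg over 24669 probes), and the test was tried on simulated data. Genes were named by the file's symbol, then by RefSeq accession, synonym or description, and 15561 probes had no name. The members and lists were chosen with earlier results of these data known. Some genes of the pathway are not reported here, and the lists were counted without them. Named are all members, the called genes with the largest change on each list (up to 4 each way), a short set of pathway genes, and the 5 nearest patterns of *IL6* and *LIF*. As alternatives, limma's treat, the methods' t-test, other background corrections, normalizations and filters were run, the mean over the probes of a gene was used, and each replicate was left out.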

Additional observations from a re-analysis of the deposited data

Results flagged for a closer look

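Of 26 sets of 4 ratios examined (member probes and named genes of the lists), 1 had a sample far from the others, where chance gives about 1 in 20. On the *LIF* probe, replicate 4 had a log2 ratio of -0.19, and the other 3 arrays lay between 0.47 and 0.54. The HMB channel of *LIF* was not well above background on replicate 4, with a signal of 25.8, and the control channel was, with 29.5.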

How the results depend on the processing

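The ratio of *IL6* (3.62 to 4.50) kept its direction and its call in all alternatives. That of the first *OSMR* probe ranged from 0.40 to 2.38, with no value where both channels were required above background. Its call is no sign of stability, as the HMB channel alone admitted it. Between 2 and 4 member probes were called, against 3 as reported. The call on the second *IL6ST* probe (0.42) was lost with treat and with the methods' t-test at the same ratio of 0.42 (adjusted p = 1 and 0.148), with normexp and loess (0.17), with loess alone (0.32), without the filter on dim probes (0.42, adjusted p = 0.0811), for the mean over the probes of the gene (0.33), and without replicate 2, 3 or 4, where the mean over all replicates left out ranged from 0.29 to 0.55. Scaling to 320 spike-in spots moved the median of all tested probes by -0.60 and gave -0.38 and -0.24 for *IL6ST*, -0.21 for *IL11*, -0.49 for the probe described as *IL11RA*, -0.14 for *JUNB* and -0.32 for *CNTF*. It called 20203 probes, of which 4.98% were higher (42.5% as reported), and 35 list genes (6 higher and 29 lower), against 15 (14 and 1). Median centring moved the median by 0.15 and made 65.3% of the calls higher. All probes called numbered 2822 with treat, 3539 with normexp and 4440 with loess alone, against 7046 (54.6%, 55.0% and 60.1% higher), and genes called 867, 1009, 1277 and 7116 (spike-in scaling), against 2292. The cause of these moves was not tested. The authors' table differed from the scanner files by at most 3.96e-05 on the log10 scale. Each ratio is the difference of HMB and control within an array, so the reported test already compares both channels array by array. Since the number of separate controls is not settled, this need not be a pairing of cultures. Signals near background limit *OSMR*, *LIF*, *LIFR*, *CNTFR* and *IL6R*.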
